A study of Mus musculus with 13 samples.

Results

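AP-1 and the early growth response (EGR) proteins are transcription factors whose genes are switched on within minutes of a stimulus. Their mRNAs were followed here through 10 genes, taken by their symbols from deposited expression tables of HSPCs, the stem and progenitor cells of blood, of the mouse: Fos, Fosb, Fosl2, Jun, Junb, Jund, Egr1, Egr2, Egr3 and Atf3. They are 10 of 55421 genes in the tables, and all 10 were among the 19289 genes with enough counts to be tested. The study's title concerns SETD2, an enzyme that methylates histones along transcribed genes, and SRSF2, a splicing factor that is mutated in myelodysplastic syndrome. Bulk RNA-seq of bone marrow HSPCs was deposited for 4 genotypes: wild type (n = 2 libraries), Srsf2 mutated (n = 3), Setd2 knockout (n = 2), called the labelled knockout below because the level of Setd2 does not show the deletion, and both changes together (n = 3), called double mutant. The series also lists 3 single-cell samples, not analysed here, and for those alone the labels give the alleles (Srsf2 P95H/+ and Setd2 fl/fl), the Mx1-Cre driver that all 3 groups carried, the gate (Lin- c-Kit+), the transplant model and the time, 4 weeks after pIpC. pIpC turns on the interferon-responsive Mx1 promoter, which acts in many blood and non-blood cells. Alleles, gate, age, strain and time are not given for the bulk libraries in the sources used here, nor is it stated whether libraries of a group came from separate mice, so p-values measure the spread between these libraries, which may be technical.

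AP-1 is a dimer of basic leucine zipper proteins. A FOS protein (here Fos, Fosb, Fosl2) needs a JUN partner (Jun, Junb, Jund), JUN proteins can also pair with each other or with ATF3, and the dimer binds a short palindromic DNA element. EGR proteins are zinc finger factors that bind a GC-rich element. Stimuli reach these genes largely through MAP kinases, which act on serum response factor and its partners at the CArG box and on CREB-type factors at the cAMP response element, and the mRNAs are short-lived. In blood-forming cells the factors are known for roles in myeloid differentiation and stem cell quiescence, and they are also known to rise when cells are handled.

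Promoter windows from RefSeq (GRCm38.p6), the 250 bases before a transcription start, were matched by symbol for 8 of the 10 genes. The windows were searched on both strands for the CArG box, the cAMP response element TGACGTCA, the AP-1 element TGANTCA and the EGR element GCGNGGGCG. The windows of 3 genes are shown 5′ to 3′ because they belong to genes that behaved differently. In the main fit, with all libraries and with low counts filtered out, Fos passed the significance threshold set below in no comparison and Fosb in every comparison. Egr2 went from barely detected to well detected. Capitals mark a match, and the 6 bases of the Fosb window next to its start, annotated as exon in GENCODE M21, are left out of the print.
Fos, chr12:85473640-85473889, plus strand: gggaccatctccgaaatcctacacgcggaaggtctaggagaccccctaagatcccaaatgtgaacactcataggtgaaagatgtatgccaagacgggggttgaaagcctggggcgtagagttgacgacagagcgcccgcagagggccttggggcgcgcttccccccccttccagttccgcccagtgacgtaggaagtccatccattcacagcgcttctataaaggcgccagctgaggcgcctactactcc
Fosb, chr7:19310052-19310295, minus strand: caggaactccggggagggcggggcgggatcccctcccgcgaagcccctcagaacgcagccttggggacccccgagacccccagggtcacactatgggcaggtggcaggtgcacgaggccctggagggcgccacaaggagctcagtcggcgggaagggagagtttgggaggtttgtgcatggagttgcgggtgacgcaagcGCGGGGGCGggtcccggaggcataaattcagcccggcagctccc
Egr2, chr10:67537619-67537868, plus strand: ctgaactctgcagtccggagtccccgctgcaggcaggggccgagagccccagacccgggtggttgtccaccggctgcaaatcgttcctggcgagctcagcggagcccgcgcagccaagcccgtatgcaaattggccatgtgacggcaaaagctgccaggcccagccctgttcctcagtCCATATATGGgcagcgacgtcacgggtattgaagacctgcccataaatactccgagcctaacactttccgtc
The Fosb window holds an EGR element 50 to 42 bases before the RefSeq start, an element present in 4.70% of all 32851 RefSeq windows. The Egr2 window holds a CArG box 72 to 63 bases before the start, found in 1.47% of windows, and 4 of the 5 windows listed for Egr2 hold such a box, at 2 distinct positions because 3 of the windows overlap. Fosl2 has an EGR element in its window as well, but all 250 bases of that window are annotated as exon in GENCODE M21. The Fos window, like those of Jun, Junb, Jund and Atf3, holds none of the 4 motifs, which says only that these letters are absent from this stretch. The Jund window ends at 70697738, while the annotated gene starts at 70698949. The Atf3 window, 191183334 to 191183583, lies inside the annotated gene, 191170296 to 191218039. These windows therefore do not adjoin the annotated starts of Jund and Atf3.

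The libraries held 32117387 to 50445434 counts. The wild type libraries differed from each other in most of these genes. In CPM (read counts scaled to library size), 8 of the 10 genes were higher in wild type replicate 1 than in replicate 2, Atf3 by 3.62-fold, Egr1 by 2.52-fold and Fosb by 2.03-fold, while Fosl2 and Egr3 were lower. Each gene's ratio was set beside those of the genes whose mean CPM in the same pair was within 2-fold of its own. In the wild type pair 7 of the 10 lay beyond the 95th percentile of these absolute log2 ratios (Fos, Fosb, Jun, Junb, Jund, Egr1 and Atf3), while Fosl2, Egr2 and Egr3 did not. In the labelled knockout pair 1 did (Junb), and in the other 6 pairs of libraries within a group 0 did. Against the 95th percentile of all genes in the wild type pair (1.58), which low counts widen, Atf3 alone lay beyond. Of 28 other immediate early genes measured in both wild type libraries, 21 were higher in replicate 1, among them Nr4a1 and Dusp5 by more than 2-fold, and so were 12 of 19 genes described as AP-1 or EGR targets, 6 of them by more than 2-fold (Cd69, Cxcl2, Mmp13, Ptgs2, Il6 and Ccl3). Il6 had only 13 and 6 counts. The median log2 ratios of these lists were 0.23 and 0.26, against 0.0 over all genes. The share of all genes higher in replicate 1 was not counted. Of 23 genes that rise during tissue dissociation 16 were higher, 0 of them by more than 2-fold. Other basic leucine zipper genes (9 of 18), EGR partners and serum response factors (4 of 9) and MAP kinase genes (9 of 21) were about evenly split. For the 10 genes, where leaving out a wild type library ended or made a call, or moved a called value by over 1.5 times, the value without it stands beside the result below. Setd2 itself stood at 152, 222, 197 and 130 CPM (group means in the order wild type, labelled knockout, Srsf2 mutated, double mutant), so its level goes against the label of the knockout libraries. A count over the whole gene need not show the loss of some exons, and the point mutation of Srsf2 (263, 323, 231 and 223 CPM) cannot be seen in a count. Xist, the female-specific X-inactivation RNA, stood at 472 to 499 CPM in wild type and at 7.94 CPM or less in the other 8 libraries. Ddx3y, a Y-linked gene, had 0 counts in wild type and in the labelled knockout and 104 to 128 CPM in the other 6, so by Ddx3y the sex-linked state of the cells and the Srsf2 genotype cannot be told apart. By Xist the same holds for wild type against every other group, which includes the Setd2 comparison without the Srsf2 mutation and every interaction.

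**Figure D1:**
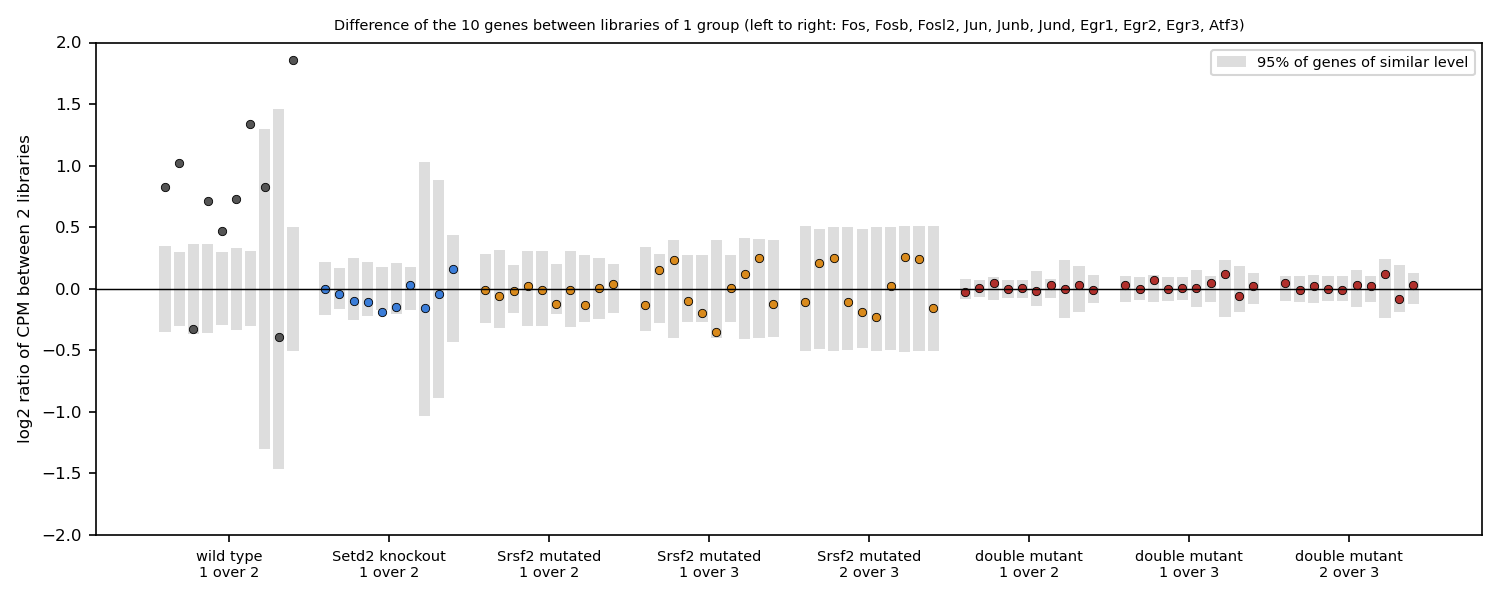
Log2 ratio of CPM between 2 libraries of a group (vertical axis) for the 10 genes, with 1 point a gene in the order given in the title and a column for each of the 8 pairs. Each grey bar spans the ratio that 95% of genes within 2-fold of that gene's mean CPM in the pair stay within. In the wild type pair 7 of 10 points lie outside their bar, in the labelled knockout pair 1 does, and in the other 6 pairs 0 do.

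The genotypes were compared with edgeR's quasi-likelihood test over all tested genes, with Benjamini-Hochberg adjustment and a call at an adjusted p under 0.05. Most of the 10 genes were higher with the Srsf2 mutation: 9 of 10 were called higher than in wild type and 0 lower, where 28.5% of all tested genes were called higher. The exception was Fos. Their median log2 difference was 2.71, against 0.08 over all genes. In the double mutant 9 of 10, again without Fos, were higher than in the labelled knockout, where 26.0% of all genes were called higher. In the labelled knockout the changes were few and mixed: against wild type 2 of 10 were called higher (Fosb, Egr3; 18.7% of all genes) and 3 lower (Fosl2, Junb, Egr1; 19.9%). These shares are near those of all genes. By overlap of library values alone, 9 were above wild type in Srsf2 mutated (33.4% of all genes) and 0 below (33.1%), 10 were above the labelled knockout in double mutant (36.3%) and 0 below (37.2%), and in the labelled knockout 2 were above wild type (38.5%) and 2 below (34.6%). Between double mutant and Srsf2 mutated, 1 was called higher (Fosl2; 17.8% of all genes) and 3 lower (Fosb, Junb, Jund; 15.9%). The comparisons share libraries with each other, so they are not independent. Double mutant against wild type, and Srsf2 mutated against the labelled knockout, were not tested, and for those pairs only overlap of library values is given. In bulk RNA a lower level can mean fewer cells of a type or less RNA per cell, which cannot be told apart.

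**Figure D2:**
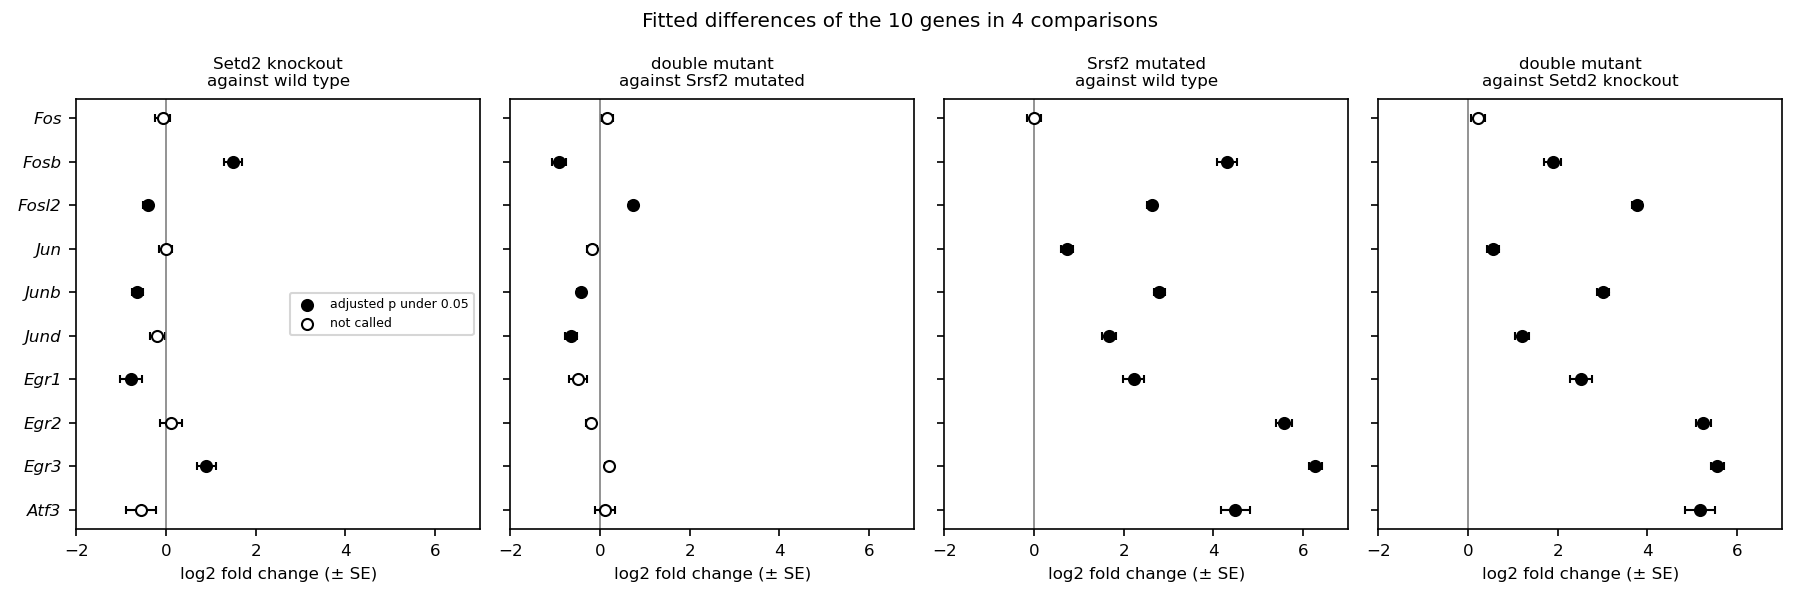
Log2 fold change (horizontal axis, ± SE of the edgeR fit) of each of the 10 genes in 4 comparisons. Filled points were called at an adjusted p under 0.05 and open points were not; 9 of 10 are filled to the right of 0 in both comparisons of Srsf2 mutated with unmutated libraries, and Fos is open in all 4 panels.

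Marker mRNAs of several blood cell types moved with the same comparisons, and cell numbers were not measured. Summed over 8 early neutrophil markers (Mpo, Elane and others), expression was 26312 to 26698 CPM in wild type, 14249 to 15387 in the labelled knockout, 9181 to 10784 in Srsf2 mutated and 7246 to 7409 in double mutant. The 13 erythroid markers summed to 645 to 724, 1778 to 1834, 6204 to 7927 and 21256 to 22792 CPM in the same order. The 10 B lymphoid markers were highest in Srsf2 mutated, at 1265 to 1351 CPM, against 186 to 210 in wild type, 136 in the labelled knockout and 329 to 345 in double mutant. In Srsf2 mutated against wild type 28.5% of all tested genes were called higher and 27.8% lower. There 0 of 8 early neutrophil markers were called higher and 8 lower, and 8 of 13 erythroid markers higher and 3 lower. For B lymphoid markers 10 of 10 were called higher. Of 10 late neutrophil markers 4 were called higher and 4 lower, and of 10 stem cell genes 1 higher and 6 lower. The 10 late neutrophil markers summed to 17654 to 24578, 6367 to 6947, 15217 to 18846 and 35300 to 36093 CPM. Hematopoietic stem cell genes, Kit among them, were present in all libraries, with a sum over 10 genes of 795 to 875 CPM in wild type, 804 to 825, 490 to 512 and 389 to 402. In the same order 5 eosinophil genes summed to 811 to 940, 150 to 163, 1257 to 1526 and 1727 to 1774 CPM. The 8 mast cell and basophil genes summed to 626 to 652, 485 to 497, 1304 to 1497 and 857 to 866 CPM. The 12 monocyte and macrophage genes summed to 2161 to 2171, 1831 to 1961, 1604 to 1744 and 1972 to 2093 CPM. Of these 12, 8 were called higher in Srsf2 mutated than in wild type and 2 lower. Other marker lists are not shown. None of these markers was at 0 in all libraries. The part of these shifts in the AP-1 and EGR differences was not tested.

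Fos (ENSMUSG00000021250, chromosome 12, 85473890 to 85477273, GRCm38), the founding partner of JUN in AP-1, did not follow the rest. It stood at 784 and 441 CPM in the wild type libraries, 585 and 584 in those labelled Setd2 knockout, 591, 597 and 645 in Srsf2 mutated, and 683, 695 and 670 in double mutant. The wild type pair spanned all 8 other values. Between Srsf2 mutated and wild type the log2 difference was -0.00 ± 0.15 SE (95% interval -0.30 to 0.29, adjusted p = 0.99 by edgeR). That value rested on which wild type library was kept: 0.47 (adjusted p = 0.000152) without replicate 1 and -0.37 (adjusted p = 0.000712) without replicate 2. So did that between the labelled knockout and wild type, at -0.07 and not called with both, 0.41 (adjusted p = 0.00134) without replicate 1 and -0.42 (adjusted p = 0.000796) without replicate 2. Double mutant stood 0.16 above Srsf2 mutated, which was called only without replicate 1 (adjusted p = 0.0321) or replicate 2 (0.0306). Double mutant values lay above those labelled Setd2 knockout without overlap, yet the difference of 0.22 ± 0.151 was not called (adjusted p = 0.233). It was called under 4 of 17 alternatives: with no filter on low counts, with only those groups in the fit and without either wild type library.

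Fosb (ENSMUSG00000003545, chromosome 7, 19302696 to 19310051) encodes a FOS protein that in neurons is known for a long-lived spliced form. Its values were 171 and 84.6 CPM in wild type, 358 and 367 in the labelled knockout, 1347, 1337 and 1350 in double mutant, and 2579, 2680 and 2324 in Srsf2 mutated. The 4 groups do not overlap. Fosb rose 2.83-fold in the labelled knockout (log2 1.50 ± 0.199 SE, adjusted p = 2.58e-05) and 19.7-fold in Srsf2 mutated against wild type (4.30 ± 0.216, adjusted p = 1.68e-10). Without wild type replicate 1 these log2 differences were 2.10 and 4.90, and without replicate 2 they were 1.08 and 3.88, all still called. In double mutant it stood 1.88-fold below Srsf2 mutated (-0.91 ± 0.159, adjusted p = 0.000305) and 3.71-fold higher than in the labelled knockout. So the Setd2 label went with more Fosb where Srsf2 was unmutated and with less Fosb where it was mutated. The interaction, the log2 difference between these 2 differences, was -2.41 ± 0.255 (adjusted p = 2.47e-06), and -3.01 or -1.99 without wild type replicate 1 or 2.

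Fosl2 (ENSMUSG00000029135, chromosome 5, 32135801 to 32157842) encodes Fra-2, a FOS relative that lacks the strong activation domain of Fos. It moved the opposite way to Fosb in both Setd2 comparisons. Values were 29.8 and 37.4 CPM in wild type, 24.4 and 26.2 in the labelled knockout, 216, 220 and 184 in Srsf2 mutated, and 354, 343 and 338 in double mutant. Again no groups overlap, and double mutant is the highest. Fosl2 was 1.33-fold lower in the labelled knockout than in wild type (-0.41 ± 0.108, adjusted p = 0.00706), a call that ended without wild type replicate 2 (-0.24, adjusted p = 0.127) or without replicate 1 of the labelled knockout (-0.35, adjusted p = 0.0858). It rose 6.15-fold in Srsf2 mutated (2.62 ± 0.106) and a further 1.67-fold in double mutant against Srsf2 mutated (0.74 ± 0.0837, adjusted p = 3.77e-06). Its interaction was 1.15 ± 0.137 (adjusted p = 8.78e-06).

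**Figure D3:**
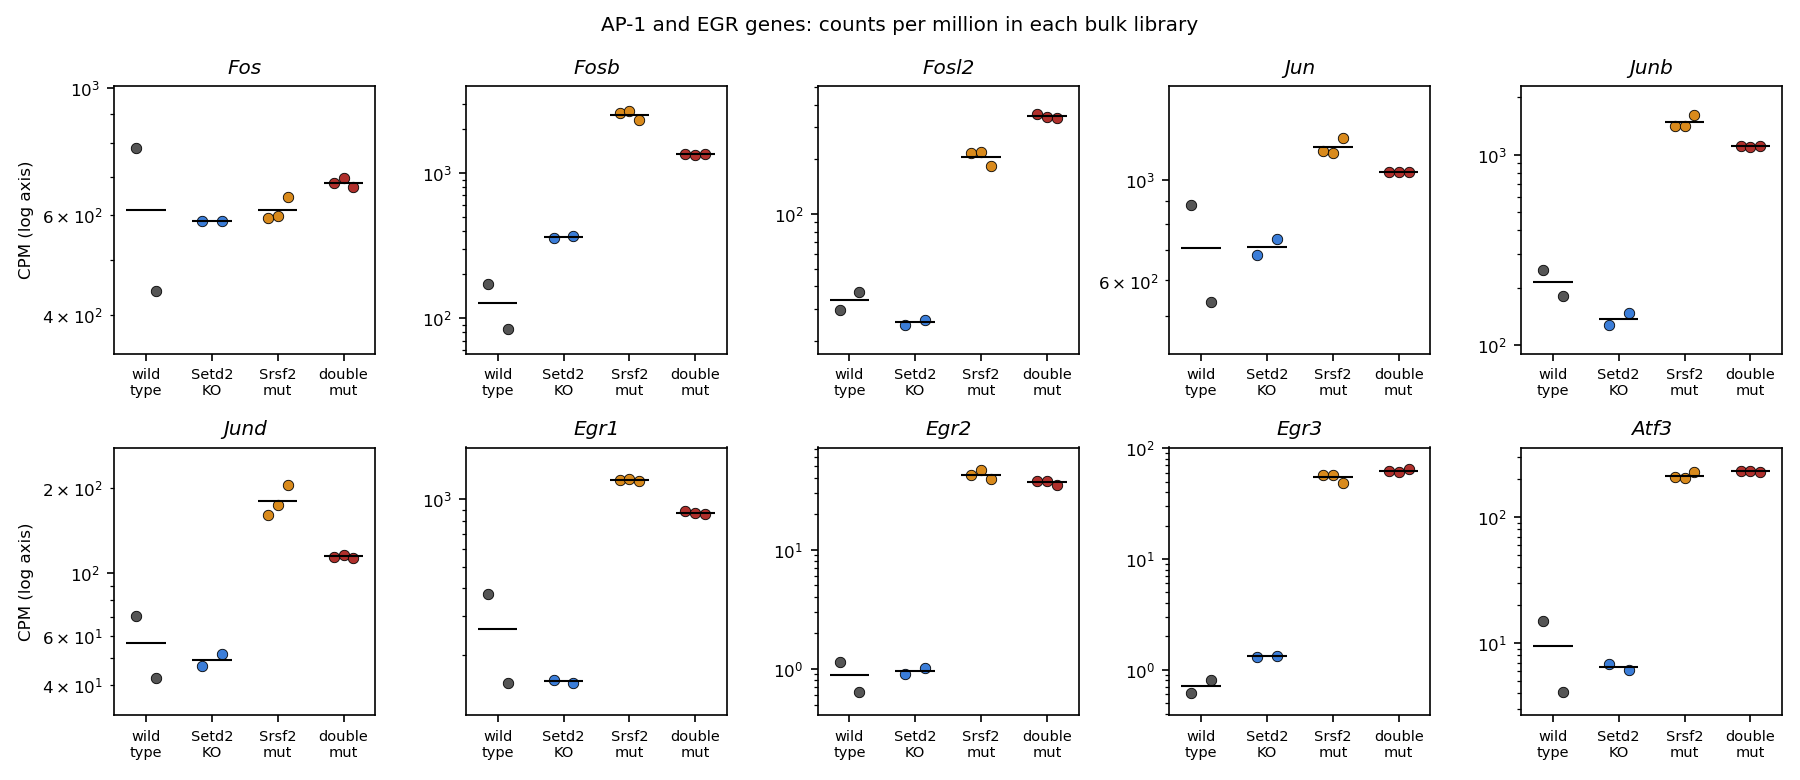
CPM (vertical axis, log scale) of each of the 10 genes in the 10 libraries; points are libraries, grouped by genotype along the horizontal axis, and lines are group means (KO, the labelled knockout). Fos alone has its highest and lowest values in the wild type pair, while Egr2, Egr3 and Atf3 rise from at most 14.9 CPM to at least 34.7 CPM with the Srsf2 mutation.

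Jun (ENSMUSG00000052684, chromosome 4, 95049034 to 95052222), the classical partner of FOS proteins, changed least among the 9 genes that rose. It stood at 880 and 539 CPM in wild type, 684 and 740 in the labelled knockout, 1160, 1147 and 1240 in Srsf2 mutated, and 1042, 1043 and 1045 in double mutant. It was 1.67-fold higher in Srsf2 mutated than in wild type (0.74 ± 0.135, adjusted p = 0.000238) and 1.47-fold higher in double mutant than in the labelled knockout (0.55 ± 0.134, adjusted p = 0.00258). The second call ended without replicate 1 of the labelled knockout (0.44, adjusted p = 0.0519). Wild type and the labelled knockout overlap and were not called different, but without wild type replicate 1 the labelled knockout was higher (0.40, adjusted p = 0.00151) and without replicate 2 lower (-0.31, adjusted p = 0.00797). Double mutant and Srsf2 mutated do not overlap but were not called different (-0.18 ± 0.118, adjusted p = 0.27), although 4 of 17 alternatives called them: no filter on low counts, only those groups in the fit, and leaving out either wild type library. The antisense gene Junos shares 232 exon bases with Jun and had 136 to 407 counts, and strandedness is not given in the sources used here, so a small part of the Jun counts could belong to it.

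Junb (ENSMUSG00000052837, chromosome 8, 84974484 to 84978718), known as a brake on myeloid proliferation, had the highest level per gene length of the 10 in Srsf2 mutated libraries, at 661 ± 43.1 FPKM (SD, n = 3). Values were 248 and 180 CPM in wild type, 128 and 147 in the labelled knockout, 1408, 1417 and 1618 in Srsf2 mutated, and 1115, 1104 and 1108 in double mutant. All groups are separate. Junb was 1.56-fold lower in the labelled knockout than in wild type (-0.64 ± 0.119, adjusted p = 0.000563), 6.92-fold higher in Srsf2 mutated than in wild type (2.79 ± 0.121, adjusted p = 2.73e-11), and in double mutant 1.34-fold below Srsf2 mutated (-0.42 ± 0.0962, adjusted p = 0.00297). Junb was thus lower with the Setd2 label on both Srsf2 backgrounds. The interaction was not called (0.22, 95% interval -0.08 to 0.52), but it was without wild type replicate 2 (0.43, adjusted p = 0.0126), and it was -0.03 without replicate 1. Junb shares 173 exon bases with the opposite-strand gene Prdx2, which had 6686 to 19152 counts, so unstranded counting could mix the genes there.

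Jund (ENSMUSG00000071076, chromosome 8, 70698949 to 70700616), often described as the steadier JUN, also rose. It stood at 70.2 and 42.5 CPM in wild type, 46.8 and 51.8 in the labelled knockout, 160, 174 and 205 in Srsf2 mutated, and 114, 116 and 113 in double mutant. Wild type and the labelled knockout overlap, and their difference of -0.19 was not called, but without wild type replicate 2 it was (-0.51, adjusted p = 0.00589). Srsf2 mutated lies above double mutant in every library. The difference was 3.19-fold for Srsf2 mutated against wild type (1.67 ± 0.156, adjusted p = 2.19e-07), and double mutant was 1.57-fold lower than Srsf2 mutated (-0.65 ± 0.131, adjusted p = 0.00105).

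Read per gene length, the make-up of AP-1 mRNA changed with the Srsf2 genotype. In FPKM, as deposited, Fos made up 91.5% of the FOS family (Fos, Fosb, Fosl2 and Fosl1) in wild type (SD 0.106, n = 2), 80.4% ± 0.314 in the labelled knockout, 37.8% ± 2.88 (n = 3) in Srsf2 mutated and 53.3% ± 0.556 in double mutant. Fosb made up 7.08% ± 0.656, 18.8% ± 0.272, 58.8% ± 2.61 and 39.6% ± 0.518, so it passed Fos only in Srsf2 mutated. Fosl2 never exceeded 6.70% in a library. The ratio of Fosb to Fos read counts, which no scaling of libraries can alter, was 0.219 and 0.192 in wild type, 0.612 and 0.628 in the labelled knockout, 4.36, 4.49 and 3.60 in Srsf2 mutated, and 1.97, 1.92 and 2.01 in double mutant. This ratio differed between the wild type libraries far less than either gene did. In the JUN family Jun was the larger part in wild type (63.4% ± 1.96) and in the labelled knockout (71.4% ± 0.645), and Junb in Srsf2 mutated (57.3% ± 0.478) and double mutant (54.9% ± 0.169). Jund kept 7.75% to 10.1% in every library. The summed level rose in both families, from 267 ± 107 to 707 ± 34.0 FPKM for FOS and from 328 ± 103 to 1152 ± 65.6 FPKM for JUN between wild type and Srsf2 mutated. Double mutant lay between, at 521 ± 5.03 and 841 ± 0.938 FPKM.

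**Figure D4:**
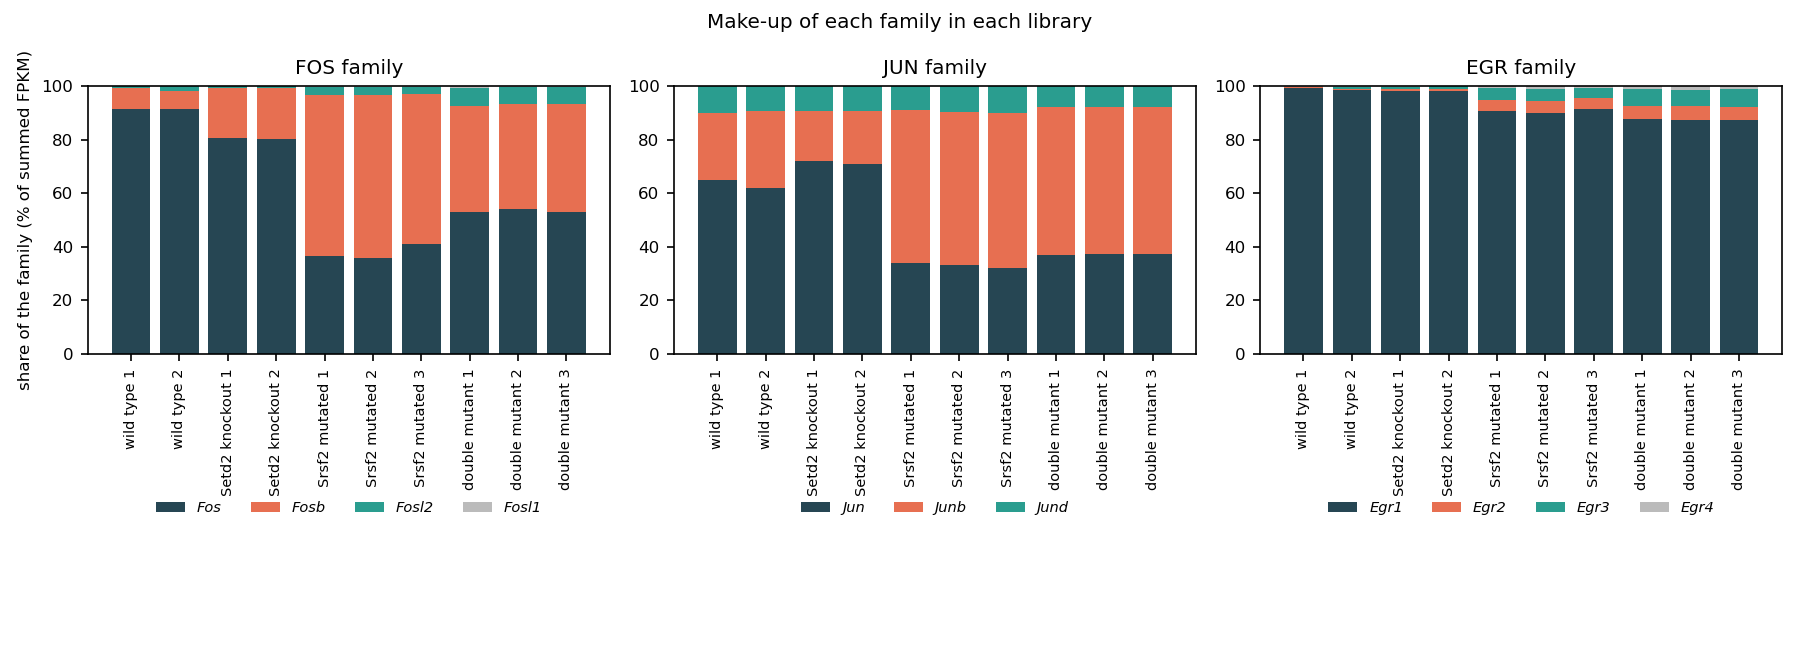
Share of the summed FPKM of the FOS, JUN and EGR families (vertical axis, percent) held by each gene in each of the 10 libraries. Fos holds over 80% of its family in the 4 libraries without the Srsf2 mutation and 35.9% to 54.0% in the 6 with it, while Egr1 holds at least 87.4% of its family in every library.

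Egr1 (ENSMUSG00000038418, chromosome 18, 34859823 to 34864984), a zinc finger factor tied to stem cell quiescence and macrophage fate, was the most abundant EGR gene throughout. Values were 377 and 150 CPM in wild type, 155 and 151 in the labelled knockout, 1225, 1230 and 1214 in Srsf2 mutated, and 888, 872 and 858 in double mutant. It was 4.64-fold higher in Srsf2 mutated than in wild type (2.22 ± 0.243, adjusted p = 1.31e-06). That log2 difference was 3.03 without wild type replicate 1 and 1.69 without replicate 2, both called. The lower level in the labelled knockout (-0.78 ± 0.247, adjusted p = 0.02) rested on wild type replicate 1, and without it the difference was 0.032 (adjusted p = 0.785). That call also ended with DESeq2 (adjusted p = 0.069), with only those groups in the fit (0.0678) and without either labelled knockout library (0.0783 and 0.0791). Double mutant lay below Srsf2 mutated in every library, a difference of -0.49 ± 0.199 that was not called (adjusted p = 0.0733). It was called under 5 of 17 alternatives: upper-quartile scaling (0.0441), no filter on low counts (5.24e-12), only those groups in the fit (1.12e-05), and without wild type replicate 1 (1.04e-06) or 2 (9.34e-07), all adjusted p.

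Egr2 (ENSMUSG00000037868, chromosome 10, 67535475 to 67542188), known for its part in macrophage and lymphocyte programmes, went from near the limit of detection to a clear signal. Its counts were 48 and 27 in wild type and 42 and 48 in the labelled knockout, or 0.635 to 1.13 CPM. Srsf2 mutated libraries held 1860, 2293 and 1530 counts (42.2, 46.3 and 38.7 CPM), and double mutant libraries 1158, 1721 and 1680 (37.7, 37.6 and 34.7 CPM). The rise was 47.9-fold in Srsf2 mutated (5.58 ± 0.177, adjusted p = 7.13e-13) and 38.0-fold in double mutant against the labelled knockout (5.25 ± 0.173). Between double mutant and Srsf2 mutated it was not called (-0.21, 95% interval -0.41 to -0.00).

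Egr3 (ENSMUSG00000033730, chromosome 14, 70077203 to 70082614), a close relative of Egr2 described in lymphocyte activation, showed the largest rise of the 10 with the Srsf2 mutation. It had 26 and 34 counts in wild type (0.612 and 0.80 CPM), 60 and 63 in the labelled knockout (1.30 and 1.33 CPM), 2549, 2838 and 1922 in Srsf2 mutated (57.8, 57.3 and 48.6 CPM), and 1898, 2780 and 3116 in double mutant (61.9, 60.8 and 64.4 CPM). The rise was 77.0-fold in Srsf2 mutated (6.27 ± 0.15, adjusted p = 2.58e-14) and 47.3-fold in double mutant against the labelled knockout. The labelled knockout libraries, low as they were, stood 1.86-fold above wild type (0.90 ± 0.207, adjusted p = 0.00288). Double mutant against Srsf2 mutated was not called (0.19 ± 0.0829, adjusted p = 0.0886). The interaction of -0.70 ± 0.224 was called (adjusted p = 0.0247), and that call ended without wild type replicate 1 (-0.52, adjusted p = 0.169) or either labelled knockout library (adjusted p = 0.0512 and 0.0672).

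Atf3 (ENSMUSG00000026628, chromosome 1, 191170296 to 191218039), a stress-induced factor that pairs with JUN proteins and often represses, followed the Egr2 and Egr3 pattern at a higher level. It stood at 14.9 and 4.12 CPM in wild type, 6.83 and 6.09 in the labelled knockout, 210, 204 and 228 in Srsf2 mutated, and 233, 234 and 230 in double mutant. The labelled knockout lies within the wild type pair. Its difference from wild type of -0.56 ± 0.336 was not called (adjusted p = 0.206 by edgeR). With no filter on low counts it was called (-0.56, adjusted p = 5.17e-06 by edgeR). It turned to 0.65 without wild type replicate 1 and to -1.21 without replicate 2. Atf3 was 22.5-fold higher in Srsf2 mutated than in wild type (4.49 ± 0.319, adjusted p = 9.39e-09). That log2 difference moved to 5.70 without wild type replicate 1 and to 3.84 without replicate 2, both called. Atf3 was 36.0-fold higher in double mutant than in the labelled knockout (5.17 ± 0.332). Double mutant and Srsf2 mutated differed by 0.12 ± 0.222, not called.

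Seen across libraries, the double mutant did not simply carry more or less of the group than Srsf2 mutated. All 10 genes separated these groups without overlap, 4 higher in double mutant (Fos, Fosl2, Egr3, Atf3; 24.0% of all genes) and 6 lower (Fosb, Jun, Junb, Jund, Egr1, Egr2; 21.3%), although 4 of the 10 were called. Of the 3 genes called in both Setd2 comparisons, Fosb and Fosl2 turned direction and Junb kept it. Interactions were called for 3 of 10 genes, 1 higher (Fosl2; 16.7% of all genes) and 2 lower (Fosb, Egr3; 15.2%). Such shares are near those of all genes. Leaving out a wild type library made further calls. Without replicate 1 the interaction was called for Jun (-0.58), Jund (-0.87), Egr1 (-0.52) and Atf3 (-0.53) and no longer for Egr3, and without replicate 2 for Fos (0.58), Junb (0.43), Egr1 (0.81) and Atf3 (1.32).

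The 10 genes did not rise alone in Srsf2 mutated. The lists of this and the following paragraphs are described by counts, to be read against the shares of all genes called higher and lower: 28.5% and 27.8% in Srsf2 mutated against wild type, 26.0% and 25.8% in double mutant against the labelled knockout, 18.7% and 19.9% in the labelled knockout against wild type, and 17.8% and 15.9% in double mutant against Srsf2 mutated. Of 29 other immediate early genes, 25 were called higher than in wild type and 3 lower, with a median log2 difference of 2.06. Among them Id3, an inhibitor of basic helix-loop-helix factors, rose 24.3-fold, from 2.14 and 2.23 to 50.0, 48.5 and 61.5 CPM (4.61 ± 0.156, adjusted p = 1.54e-12). Sgk1, a serum-induced kinase, rose 7.11-fold, Zfp36l1, an mRNA decay factor, 6.83-fold, and Klf4, a zinc finger factor of monocytes, 5.19-fold. The 3 that fell were Myc (-1.02), Dusp1 (-0.42, but 0.06 and not called without wild type replicate 1) and Zfp36l2 (-0.29). In double mutant against the labelled knockout 26 of the 29 were called higher and 2 lower, Btg1 by 7.43-fold and Csrnp1 by 3.46 on the log2 scale among the former. In the labelled knockout against wild type 3 were higher (Zfp36l1 by 1.97-fold among them) and 13 lower (Gadd45b by 2.16-fold among them), median -0.32. Those counts were 6 and 9 without wild type replicate 1 and 2 and 17 without replicate 2. In double mutant against Srsf2 mutated 9 were higher and 10 lower. Zfp36l1 had the Fosb pattern: 25.9 and 21.0 CPM in wild type, 47.4 and 45.2 in the labelled knockout, 162, 160 and 158 in Srsf2 mutated and 94.3, 93.9 and 99.7 in double mutant, with an interaction of -1.72 ± 0.118 (adjusted p = 2.42e-08).

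Of 20 genes described as AP-1 or EGR targets, 17 were called higher and 1 lower in Srsf2 mutated, with a median of 1.80. Il6, an inflammatory cytokine, went from 13 and 6 counts in wild type to 4411, 4608 and 4498 in Srsf2 mutated (8.82 ± 0.19, adjusted p = 8.53e-15). In CPM it stood at 0.306 and 0.141, then 1.23 and 1.33 in the labelled knockout, then 93.0 to 114 in Srsf2 mutated and 38.6, 38.3 and 37.6 in double mutant. Ptgs2, which makes prostaglandins, and the chemokine Ccl4 rose 17.0-fold and 17.8-fold. Without wild type replicate 1, the higher of the pair in both, the log2 rise of Il6 was 9.47 and Ptgs2 rose 28.4-fold. Mmp9, a protease of neutrophils, rose 3.15-fold in Srsf2 mutated and a further 3.50-fold in double mutant (1.81 ± 0.074, adjusted p = 2.69e-11), where Il6 was 2.68-fold lower. Between double mutant and Srsf2 mutated, 8 of the 20 were higher and 7 lower, so the targets did not share a direction there. The labelled knockout had 4 of 20 higher and 6 lower, near the shares of all genes, with Plaur, the urokinase receptor, 2.25-fold lower and Mmp9 2.02-fold lower. In double mutant against the labelled knockout 17 were higher and 1 lower.

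With the Srsf2 mutation, factors and kinases around AP-1 and EGR changed less in the median than the immediate early genes and targets above. Of 18 other AP-1 and related basic leucine zipper genes, 10 were called higher and 5 lower in Srsf2 mutated (median 0.64). The small MAF genes Maff and Mafk rose 9.69-fold and 3.18-fold, and Nfil3, a factor of innate lymphocytes, rose 5.10-fold. Nfil3 and Jdp2, a repressor of AP-1, were each 2.27-fold lower in the labelled knockout than in wild type, where 1 of the 18 was higher and 4 were lower. In double mutant against Srsf2 mutated 7 were higher and 1 lower, and in double mutant against the labelled knockout 13 higher and 3 lower (median 0.81). Of 9 EGR partners and serum response factors, 2 rose and 2 fell in Srsf2 mutated. Egr4 rose (3.87 ± 0.276) and so did Elk4, a CArG box partner (2.05-fold), while Mrtfa, a coactivator of serum response factor, fell 2.01-fold and Elk3 1.20-fold, the last not called without wild type replicate 1 (adjusted p = 0.124). Srf itself stood at 153 and 158 CPM in wild type and 151, 150 and 155 in Srsf2 mutated. It was lower in both Setd2 comparisons, 1.75-fold in the labelled knockout (86.7 and 91.3 CPM, adjusted p = 5.56e-07) and 1.45-fold in double mutant (108, 105 and 99.9 CPM, adjusted p = 2.85e-06). Of 21 MAP kinase genes 4 rose and 7 fell in Srsf2 mutated (median -0.01). Map3k8, a kinase upstream of ERK, rose 10.1-fold, from 4.73 and 4.63 to 48.3, 47.9 and 45.7 CPM, and the ERK substrate Rps6ka1 fell 2.48-fold. In the labelled knockout 2 of the 21 were higher and 10 lower, Rps6ka1 (2.05-fold) and Mapkapk2 (1.79-fold) among the latter. In double mutant against the labelled knockout 12 of the 21 were higher and 4 lower (median 0.28). Of the 9 EGR partners and serum response factors, 4 were higher and 1 lower there (median 0.24). In the labelled knockout against wild type 1 of those 9 was higher and 5 lower, with fewer lower without wild type replicate 1.

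Genes known to rise while tissue is dissociated moved too. With the 10 genes left out, 18 of 25 were called higher and 4 lower in Srsf2 mutated against wild type (median 0.74). Socs3, a feedback inhibitor of cytokine receptors, rose 77.5-fold, and the inducible heat shock genes Hspa1a and Hspa1b 58.9-fold and 36.4-fold. Hspa1b stood at 9.64 and 11.1 CPM in wild type, 15.6 and 17.1 in the labelled knockout, 365, 358 and 413 in Srsf2 mutated, and 543, 525 and 539 in double mutant. Nfkbiz, an NF-kB cofactor, rose 32.5-fold. In double mutant against the labelled knockout 18 were higher and 1 lower, in double mutant against Srsf2 mutated 11 higher and 3 lower, and in the labelled knockout against wild type 8 higher and 7 lower. The part of sample handling in the AP-1 and EGR differences was not tested.

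**Figure D5:**
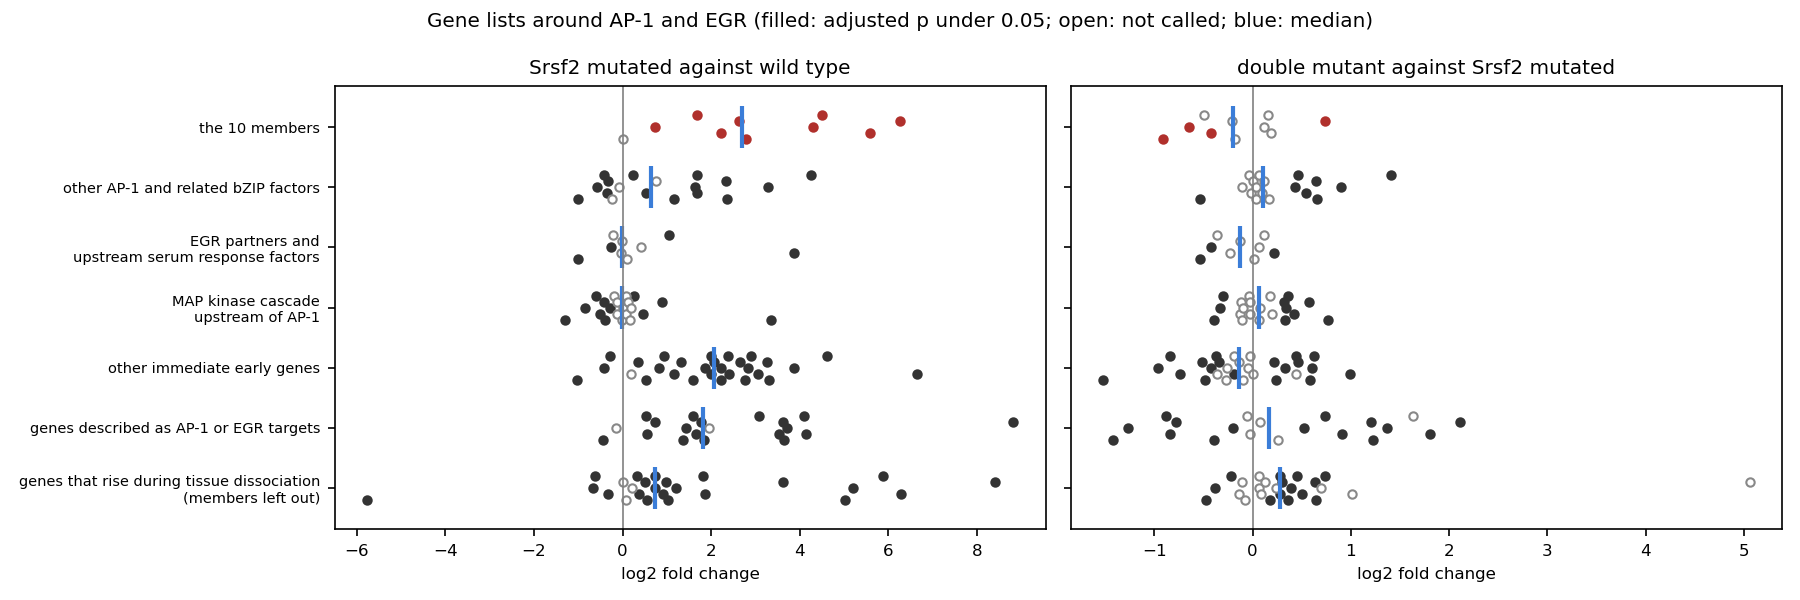
Log2 fold change (horizontal axis) of the 10 genes (red) and of the genes of 6 lists, in Srsf2 mutated against wild type (left) and double mutant against Srsf2 mutated (right); filled points were called, open points were not, and blue bars are medians. On the left the medians of the 10 genes (2.71), other immediate early genes (2.06) and described targets (1.80) sit to the right of 0. On the right the medians run from -0.19 for the 10 genes to 0.28 for the genes that rise during tissue dissociation.

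Over the 10 libraries the log2 CPM of Fos had a Pearson r of 0.30 to 0.62 with the other 9 genes, which among themselves had r of 0.80 to 0.99. The libraries with and without the Srsf2 mutation stand far apart, so these r mainly reflect that separation, and all genes share each library's scaling. The genes outside the 10 whose pattern was most like their mean were Klf6 (r = 0.9992), Nr4a1 (0.9979), Serpina3f (0.9977), Pde4b (0.9976) and Ptgs2 (0.997). Most like Fosb were Dusp4 (0.9967), Zfp36l1 (0.9944) and Il6 (0.9904), and most like Egr3 were Nlrp3 (0.9985), Hspa1a (0.9978) and Hspa1b (0.9977). The closest gene was an immunoglobulin gene for Fosl2 (Ighv10-1, 0.9988) and for Jun (Igkv6-14, 0.9854). It was Cdkn1a for Junb (0.9983), Ing2 for Jund (0.9899), Dusp5 for Egr1 (0.9914), Zc3h12a for Egr2 (0.9989) and Klf6 for Atf3 (0.9968). Among the next closest were the B cell kinase Blk for Junb (0.9974) and the Y-linked Kdm5d for Egr2 (0.9973). No gene came closer to Fos than Sdk1, at 0.823.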

How the data were processed

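The authors deposited 3 tables, each covering 2 genotypes. Per the file headers these hold read counts, which were whole numbers, and deposited FPKM values, which matched counts scaled by listed gene length and library total. The 5 libraries in 2 tables had identical counts in both, and 27 symbols turned into dates were restored from their identifiers. The submitters' processing notes list HISAT2 2.0.5, HTSeq 0.9.1, featureCounts 2.0.1 and DESeq2 1.22.2 among other tools, without saying which step used which. Counts were filtered with filterByExpr, scaled by TMM and fitted in edgeR 4.0.16 (R 4.3.3) as 1 quasi-likelihood model over all 10 libraries, on 19289 genes, with Benjamini-Hochberg adjustment over all of them. CPM uses TMM-adjusted totals. DESeq2 1.42.0, other scalings and filters, a replicate block and leaving out each library were alternatives. The script was tested on simulated counts. Libraries of a group differed by more than sampling noise (chi-square per degree of freedom 5.41 to 45.2), so none was counted as a copy. Libraries with the same number did not deviate together (r from -0.028 to 0.04). Positions come from GENCODE M21. Each pathway list gave up to 4 named genes of smallest adjusted p in Srsf2 mutated against wild type and up to 2 in each other comparison; one gene so chosen is not reported here. The genes, lists and tests were chosen with earlier results of these data known. Some genes and list members named beside their counts (Myc, Dusp1, Zfp36l2) were named after their values were seen.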

Additional observations from a re-analysis of the deposited data

Results flagged for a closer look

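For 3 of the 10 genes the Setd2 difference itself differed with the Srsf2 genotype, by the interaction term of the edgeR quasi-likelihood model. Fosb was higher in the labelled knockout than in wild type (log2 1.50) while double mutant stood below Srsf2 mutated (-0.91), an interaction of -2.41 (95% interval -2.91 to -1.91) with the direction turned in every library. Fosl2 did the reverse, -0.41 and 0.74, an interaction of 1.15 (0.88 to 1.42). Egr3 was higher in the labelled knockout (0.90), where it had 60 and 63 counts against 26 and 34, and not called in double mutant against Srsf2 mutated (0.19), an interaction of -0.70 (-1.14 to -0.26). That Egr3 call ended without wild type replicate 1 (-0.52) or without replicate 1 (-0.78) or 2 (-0.73) of the labelled knockout. Over all tested genes 16.7% had an interaction called higher and 15.2% lower, or 31.9% in either direction. So 3 of 10 is near the share of all genes.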

How the results depend on the processing

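Of 830 log2 differences of the 10 genes under the alternatives, 782 counted as unchanged, 31 passed the threshold newly, 10 lost it and 7 reversed. A reversal is a change of direction where the main fit or the alternative called the gene. Where neither did, a change of direction counted as unchanged. For Jund in the labelled knockout against wild type, for example, -0.19 in the main fit reached 0.21 with a library left out. In Srsf2 mutated against wild type, the 9 calls held under every alternative that tested the gene (Egr2 and Egr3 are not tested with at least 1 CPM in every library). Fosb, Egr3 and Junb in the labelled Setd2 knockout, all 4 calls of double mutant against Srsf2 mutated, and the Fosb and Fosl2 interactions held likewise. All 7 reversals so counted arose on leaving out a wild type library. Uncalled Fos differences also changed sign under alternatives other than leaving out a library. They reached 0.04 in the labelled knockout and 0.15 in Srsf2 mutated, each against wild type. Without wild type replicate 1, the labelled knockout against wild type gave 0.41 for Fos, 0.032 for Egr1 and 0.65 for Atf3, Srsf2 mutated against wild type gave 0.47 for Fos, and the interaction gave -0.52 for Egr1 and -0.53 for Atf3. Jun gave 0.40 in the labelled knockout without wild type replicate 1 and -0.31 without replicate 2, which also gave -0.42 for Fos, -1.30 for Egr1 and -1.21 for Atf3 there, -0.37 for Fos in Srsf2 mutated, and interactions of 0.81 for Egr1 and 1.32 for Atf3. Leaving out each library gave 2 to 5 genes higher and 1 to 6 lower in the labelled knockout against wild type, 0 to 1 lower in Srsf2 mutated against wild type, 1 to 2 higher and 3 to 5 lower in double mutant against Srsf2 mutated, and 1 to 5 higher and 1 to 5 lower for the interaction. The gene lists were also counted without each wild type library, an alternative chosen after seeing the data. Without replicate 1 the labelled knockout had 7 MAP kinase genes lower in place of 10. Without replicate 2 it had 1 MAP kinase gene higher in place of 2, and 0 of the other basic leucine zipper genes in place of 1. In Srsf2 mutated against wild type, 2 targets were lower without replicate 1 and 0 without replicate 2, in place of 1. A group left with 1 library is assumed to vary like the others. With no filter, or with only the groups compared, 5 genes were called lower between double mutant and Srsf2 mutated, and with no filter 3 had a higher interaction. With at least 1 CPM in every library 1 gene was higher in the labelled knockout and 1 had a lower interaction, since Egr3 was not tested. Upper-quartile scaling moved the median log2 difference of all genes to 0.133 in the labelled knockout, 0.181 in Srsf2 mutated against wild type and -0.211 for the interaction, and the share of calls that were higher from 48.37% to 59.49% in the labelled knockout and from 52.42% to 37.64% for the interaction. The libraries share replicate numbers but the labels do not say that a number pairs them. A fit with the replicate number as a block changed no call of the 10 genes: 2 higher and 3 lower in the labelled knockout, 9 higher in Srsf2 mutated against wild type and in double mutant against the labelled knockout, and 1 higher and 3 lower in double mutant against Srsf2 mutated.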

Other observations

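The remaining relatives of these families, Fosl1 and Egr4, were also higher with the Srsf2 mutation. Per gene length Fosl1 held at most 0.52% of its family in any group mean. Egr4 held 0.381% of its family in wild type, beside 0.472% for Egr2 and 0.35% for Egr3, and 1.28% in double mutant, beside 4.85% and 6.36%. Fosl1, which encodes the FOS relative Fra-1, had 6 and 10 counts in wild type, 5 and 6 in the labelled knockout, 193, 200 and 100 in Srsf2 mutated, and 223, 225 and 245 in double mutant. Egr4 had 19 and 16, then 8 and 7, then 219, 360 and 234, and then 169, 322 and 277 counts in the same order. Both were called higher in Srsf2 mutated than in wild type by edgeR (Fosl1 log2 4.26, Egr4 3.87).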
